A study of Mus musculus with 4 samples.

Results

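The genes described here are 9 members of the major histocompatibility complex (MHC) antigen presentation pathway, followed through the epithelial cells of the mouse duodenal crypt. They were taken by symbol from a fixed list and made up 9 of the 31053 genes in the files. The class II members were the chains H2-Aa, H2-Ab1 and H2-Eb1, the chaperones Cd74 and H2-DMa, and the regulator Ciita. The class I members were the heavy chains H2-K1 and H2-D1 and the shared light chain B2m.

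MHC class I molecules are found on nearly all nucleated cells and display peptides from inside the cell to CD8+ T cells. MHC class II molecules display peptides from the endosomal route to CD4+ T cells and belong mainly to professional antigen presenting cells, but intestinal epithelium also makes them, and intestinal stem cells are known for it. Both sets respond to interferon gamma, through Ciita for class II genes and Nlrc5 for class I genes.

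Single-cell RNA libraries (10x Genomics, version 3.1 of the 3' chemistry) came from living, sorted TOM+ cells of duodenal crypts, 2 libraries for each of 2 genotypes. WT mice carried Atoh1CreER-T2 and the R26RTom reporter, and APC-KO mice also carried the floxed allele Apcfl/fl. For the APC-KO mice the sample labels give Atoh1Cre as the driver, but the series text gives the inducible CreER-T2 for both genotypes. Every mouse had been given tamoxifen at 1 mg/mL in 2 injections 24 h apart and was harvested 12 h after the last. The Atoh1 promoter is active in the secretory lineage, so the reporter decided which cells were sorted. The labels do not say whether libraries came from separate mice and give no age, so each genotype p-value below measures the spread between libraries. Where types of cells are compared within libraries, the p-value measures how that difference varies between libraries. Apc counts gave no check of the genotype labels, since 3' counting need not cover the floxed exons, which the labels do not name.

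In WT the authors kept 4814 and 3821 cells, against 356 and 6243 in APC-KO, each pair in the order replicate 1, replicate 2 here and below. The median cell held 4841.5 and 5354 unique molecular identifiers (UMIs, 1 per captured transcript) in WT and 8370 and 3973 in APC-KO. APC-KO replicate 1 stood apart, with 5.15% of its UMIs in kept cells against 37.6% to 50.3% in the other libraries. It had under 20 cells in 9 of the 12 deposited cell types. Genotype fits are therefore also given without it for some or all members, while the comparisons of libraries type by type rest on it. Libraries shared between 1 and 8 cell barcodes. Fixed marker sets ranked highest in the type of their own name in all 4 libraries for ISC, ENTERO-PRO, GOBLET, PANETH, EC, NON-EC and TUFT. The SEC-PRO set (Dll1, Atoh1, Hes6) was highest in its own type in WT but ranked 5 and 3 in the APC-KO libraries, where GP cells were highest. The EEC-PRE set (Neurog3, Neurod1, Chga) ranked 3 and 3 in its own type in WT and 2 and 3 in APC-KO, with EC highest. The set shared by PANETH-PRE and PANETH ranked 2 in PANETH-PRE in every library. The type names are the authors', probably drawn from the same expression data, so a gene that helped to name a type is not independent of it. By these sets EC cells carried Tph1, Tac1 and Chgb, NON-EC cells other gut hormone genes, ENTERO-PRO cells enterocyte genes, and GP, GOBLET-PRE and GOBLET cells increasing levels of 1 goblet set.

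The members named H2 lie on chromosome 17 in the mouse MHC. In GRCm38 coordinates, H2-K1 (ENSMUSG00000061232) spans 33996017 to 34000347, H2-DMa (ENSMUSG00000037649) 34119541 to 34139101, H2-Ab1 (ENSMUSG00000073421) 34257689 to 34269419, H2-Aa (ENSMUSG00000036594) 34282744 to 34287823, H2-Eb1 (ENSMUSG00000060586) 34305867 to 34316674 and H2-D1 (ENSMUSG00000073411) 35262730 to 35267499. B2m (ENSMUSG00000060802) lies on chromosome 2 from 122147686 to 122153083 and Ciita (ENSMUSG00000022504) on chromosome 16 from 10480059 to 10528418. The promoter windows of 5 members are shown because they set class II chains beside class I genes, which differed in where they were high. Each runs 5′ to 3′ on the gene's strand from 250 bases before to 50 bases after the RefSeq start in GRCm38.p6 (B2m, plus strand, chr2:122147437-122147736; H2-K1, minus strand, chr17:34000298-34000597; H2-D1, plus strand, chr17:35262844-35263143; H2-Aa, minus strand, chr17:34287774-34288073; H2-Eb1, plus strand, chr17:34305617-34305916). Capitals mark matches, on either strand, to 4 motifs.
B2m: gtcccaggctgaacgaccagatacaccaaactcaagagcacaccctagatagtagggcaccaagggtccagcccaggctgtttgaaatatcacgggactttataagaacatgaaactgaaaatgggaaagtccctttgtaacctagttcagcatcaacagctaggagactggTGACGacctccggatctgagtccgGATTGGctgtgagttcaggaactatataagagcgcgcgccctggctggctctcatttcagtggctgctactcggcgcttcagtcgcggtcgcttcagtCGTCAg
H2-K1: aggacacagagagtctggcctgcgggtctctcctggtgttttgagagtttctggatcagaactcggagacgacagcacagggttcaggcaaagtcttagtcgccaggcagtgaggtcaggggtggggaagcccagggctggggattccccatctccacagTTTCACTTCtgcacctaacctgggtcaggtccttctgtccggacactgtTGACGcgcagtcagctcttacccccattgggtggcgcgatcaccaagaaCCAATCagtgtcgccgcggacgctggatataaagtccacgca
H2-D1: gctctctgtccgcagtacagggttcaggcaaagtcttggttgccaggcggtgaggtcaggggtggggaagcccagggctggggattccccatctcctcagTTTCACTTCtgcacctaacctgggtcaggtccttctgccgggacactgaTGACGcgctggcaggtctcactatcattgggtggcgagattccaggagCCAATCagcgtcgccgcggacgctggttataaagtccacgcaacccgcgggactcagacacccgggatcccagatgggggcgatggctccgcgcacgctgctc
H2-Aa: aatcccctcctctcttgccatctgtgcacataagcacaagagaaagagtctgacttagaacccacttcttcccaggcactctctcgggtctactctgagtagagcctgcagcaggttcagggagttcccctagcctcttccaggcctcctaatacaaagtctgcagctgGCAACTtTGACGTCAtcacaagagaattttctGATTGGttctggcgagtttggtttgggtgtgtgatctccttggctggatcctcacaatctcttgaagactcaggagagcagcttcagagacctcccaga
H2-Eb1: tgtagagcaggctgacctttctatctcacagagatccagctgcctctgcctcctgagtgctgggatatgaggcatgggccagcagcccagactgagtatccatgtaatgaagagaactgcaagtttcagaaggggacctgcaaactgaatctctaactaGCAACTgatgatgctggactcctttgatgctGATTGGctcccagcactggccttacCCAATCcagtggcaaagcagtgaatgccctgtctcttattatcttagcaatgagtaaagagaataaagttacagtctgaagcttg

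The motifs were GATTGG (the core of the Y box, bound by NF-Y), TGACG (part of the X2 box, bound by CREB family factors), GCAACT (part of the X1 box, bound by the RFX complex) and GAANNGAAA (a core bound by interferon regulatory factors). They were picked with these windows in view, so each match is a description. GATTGG was present in all 5 windows, against 16.1% of the 32851 promoter windows of the same length. In H2-K1 and H2-D1 it matched on the opposite strand alone, and the H2-K1 match lay after the RefSeq start. TGACG was present in every one of the 5 but H2-Eb1, against 20.8% of all windows. GCAACT was found in H2-Aa and H2-Eb1 alone among the 5, against 10.9% of all windows. It began 32 bases before GATTGG in H2-Aa and 31 bases before it in H2-Eb1. GAANNGAAA was found in H2-K1 and H2-D1 alone among the 5, against 7.52% of all windows. The B2m window holds gaaactgaaa, a similar stretch with a longer gap that this pattern cannot match. The lack of a match in B2m thus does not show that such a site is absent. In these windows the printed class II chains thus shared GCAACT and the class I heavy chains shared GAANNGAAA. The class II member H2-DMa, also in the table, had none of the 4 motifs in its first window and GATTGG alone in another.

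The summed class II level was highest in ISC and ENTERO-PRO cells in all 4 libraries. Cd74, the invariant chain that occupies and escorts new class II molecules, reached 1051 and 1194 CPM (UMIs of the gene per 1000000 UMIs of all cells of the type in a library) in ISC cells of the WT libraries. The APC-KO libraries gave 1425 and 1262 CPM in ISC. In ENTERO-PRO the same gene had 1080 and 1301 CPM in WT and 1828 and 1133 in APC-KO. ISC and ENTERO-PRO overlapped with each other and lay above each of the other types in WT, with means of 1123 ± 101 and 1190 ± 156 CPM (SD, n = 2). PANETH-PRE followed with 518 and 634 CPM in WT and 382 and 711 in APC-KO. SEC-PRO had 377 and 473 CPM in WT and 739 and 628 in APC-KO. At the low end Cd74 was at 79 and 91 CPM in GOBLET and 64 and 14 in TUFT cells of WT, and at 250 and 131 and at 57 and 225 in the APC-KO libraries. EC, NON-EC, PANETH and GOBLET-PRE lay between 89.8 and 134 CPM in WT, where PANETH and GOBLET-PRE overlapped with each of the others, and NON-EC (130 and 119) lay above EC (106 and 89.8). Captured 3' ends are counted once per transcript, so levels are compared here within a gene rather than by length between genes.

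The chains followed Cd74, with exceptions, goblet cells among them. H2-Aa, the alpha chain of I-A, had 207 and 228 CPM in ISC of WT and 422 and 265 in APC-KO, against 17 and 19 CPM in EC of WT, the lowest type by the mean though it overlapped with TUFT, and 15 and 48 in EC of APC-KO. H2-Eb1, the beta chain of I-E, had 243 and 286 CPM in WT ISC and 475 and 314 in APC-KO ISC. In GOBLET, its lowest type in WT, H2-Eb1 had 14.8 and 9.2 CPM in WT and 53.9 and 23.4 in APC-KO. H2-Ab1, the beta chain of I-A, had 323 and 404 CPM in WT ISC and 396 and 426 in APC-KO ISC. Its lowest WT type was PANETH, at 50.8 and 51.7 CPM, while GOBLET held 131 and 180 CPM, so H2-Ab1 spanned a narrower range than the other chains. For all 3 chains, every WT library was higher in ISC than in any mature type.

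H2-DMa, a subunit of the H2-DM molecule that removes the invariant chain remnant and edits peptides, had 74.7 and 75.9 CPM in WT ISC and 171 and 77.5 in APC-KO ISC. It was at 4.93 and 4.96 CPM in WT GOBLET, its lowest type by the mean, which overlapped with PANETH and TUFT, and at 29.4 and 7.13 in APC-KO GOBLET. Ciita, the transactivator that switches on class II genes, was detected by few UMIs. ISC held 73 and 36 Ciita UMIs in WT and 7 and 196 in APC-KO, or 21.3, 25.5, 92.4 and 32.8 CPM. The 95% exact Poisson interval for the 7 UMIs, which covers counting error only, ran from 37.1 to 190 CPM. WT GOBLET cells held 1 Ciita UMI in each library. In TUFT cells WT replicate 2 held 0 Ciita UMIs, which allows up to 5.3 CPM.

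**Figure D1:**
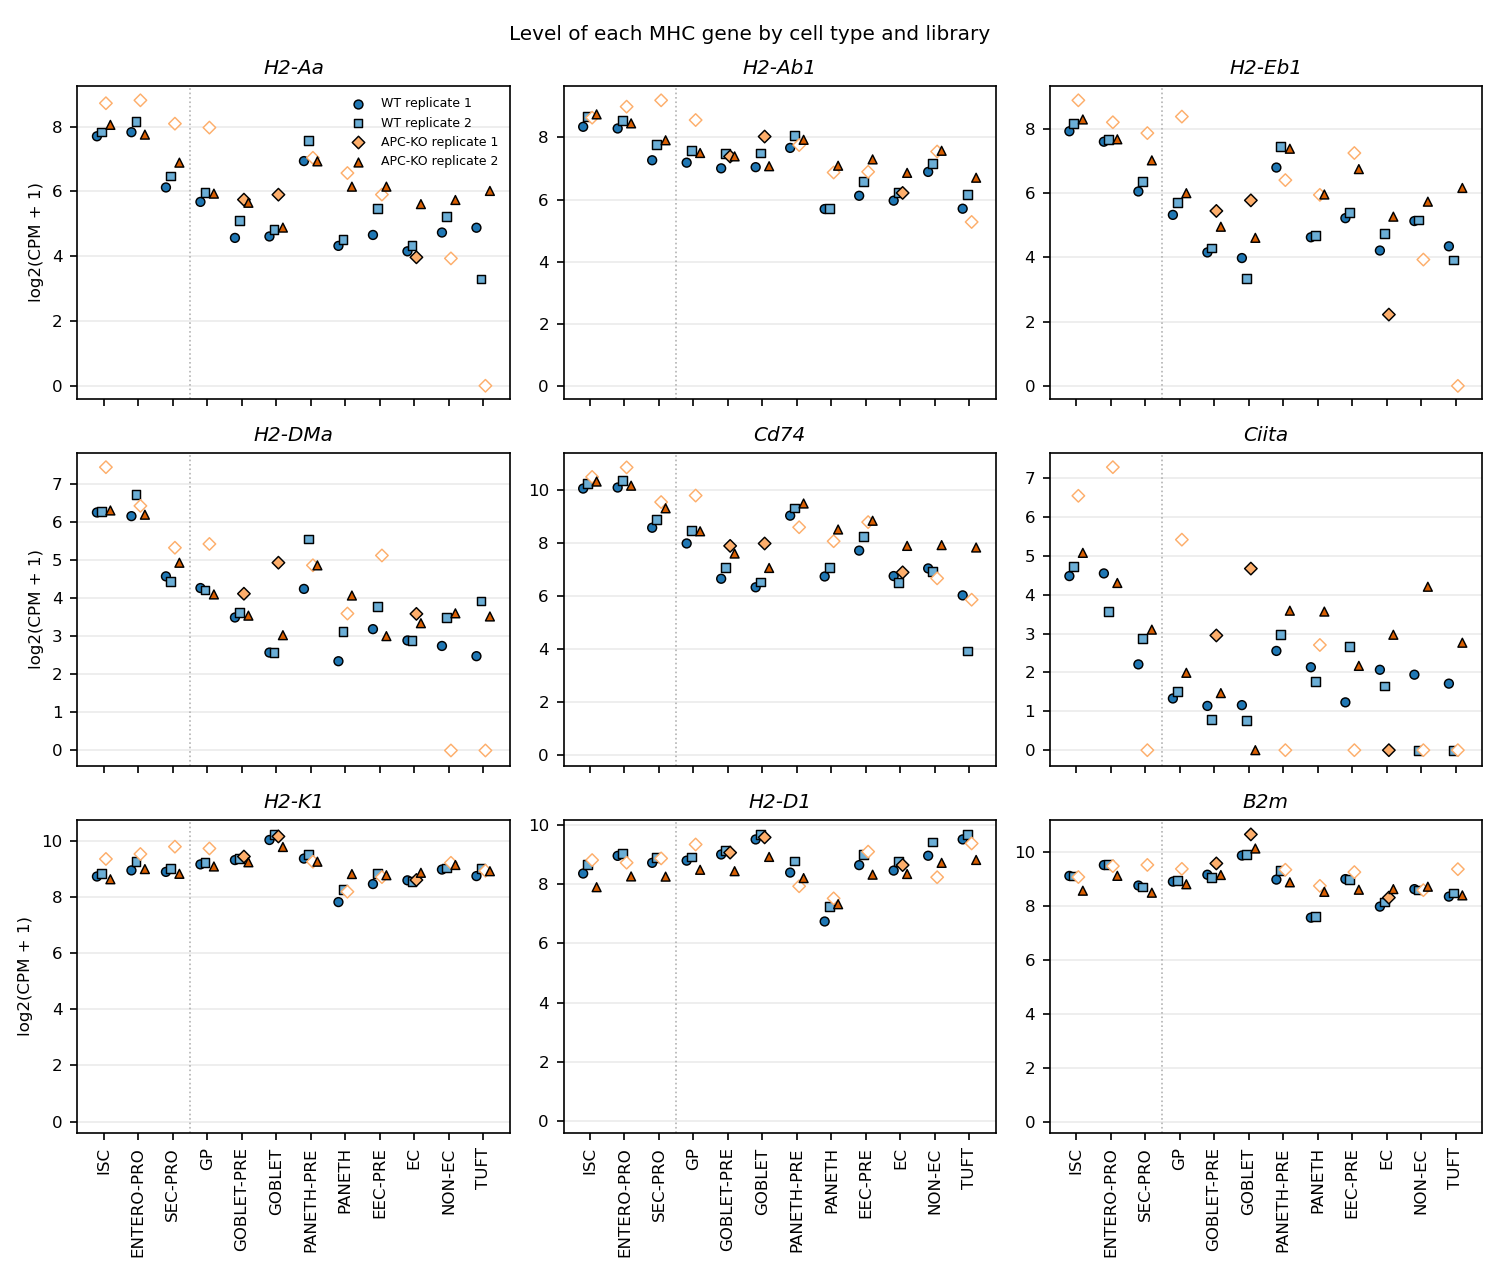
Level of each of the 9 genes as log2(CPM + 1) by cell type (x axis) and library (blue, WT; orange, APC-KO; 1 point is the summed UMIs of 1 type in 1 library; open symbols are sums of under 20 cells). Left of the dotted line are ISC and the 2 progenitor types. In WT the 6 class II genes are highest in ISC and ENTERO-PRO and the 3 class I genes in GOBLET or TUFT.

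Counts per cell also put ISC far above TUFT, the lowest type in WT by either measure. After each cell was thinned to 2000 UMIs, 93.0% of 555 ISC cells of WT replicate 1 (516 cells) and 94.6% of 221 of WT replicate 2 had at least 1 class II UMI. In APC-KO ISC cells the share was 10 of 10 and 97.4% of 1212. Unthinned, the shares in ISC were 97.9%, 99.1%, 100% and 99.4%. TUFT had the lowest share in WT, 19.7% and 24.4%, and in APC-KO replicate 2, 37.5%. In APC-KO replicate 2 its summed class II level (479 CPM) nevertheless lay above EC (451), GOBLET-PRE (450) and GOBLET (324). In APC-KO replicate 1 the TUFT share was 37.5% over 8 cells, above the 20% of EC. No type was known to lack the genes, so TUFT gives only an upper limit of what RNA outside the cells can add. Median depths before thinning were 6249 and 6579.5 UMIs in WT ISC and 3879 and 4643 in WT TUFT. ISC, SEC-PRO and ENTERO-PRO cells together held 63.0% and 46.3% of all class II UMIs in the WT libraries while being 25.6% and 17.8% of the cells. In APC-KO they held 25% and 71.0% of the class II UMIs and were 8.15% and 41.3% of the cells. Of the class I UMIs the same cells held 27.3% and 17.8% in WT and 5.48% and 40.4% in APC-KO, within 3 percentage points of their shares of cells.

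**Figure D2:**
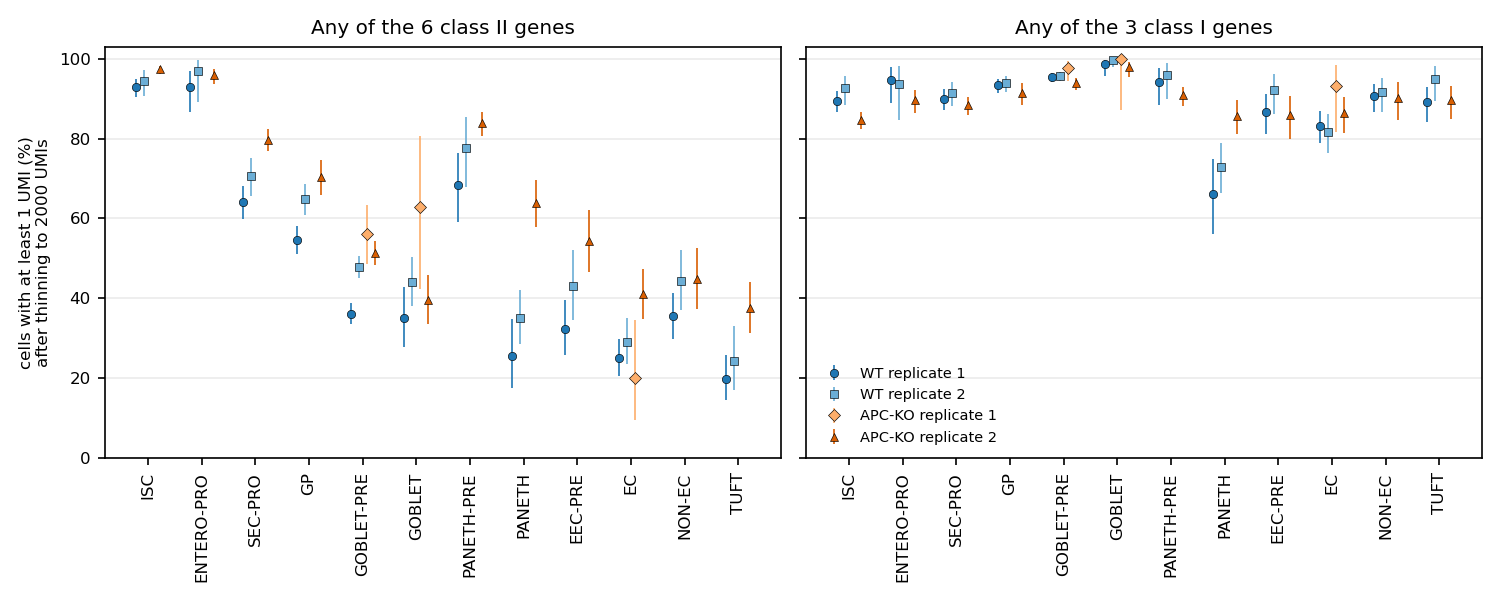
Share of cells with at least 1 UMI of any class II gene (left) or any class I gene (right) after thinning to 2000 UMIs per cell, by type and library. Bars are 95% exact binomial intervals, which cover counting error only, and sums of under 20 thinned cells are not drawn. Class II shares lie between 93.0% and 97.4% in ISC and between 19.7% and 37.5% in TUFT, while class I shares are lowest in PANETH in WT.

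Within ISC, cells with a UMI of the division genes Mki67 or Top2a were compared with the remainder. Thinned class II UMIs averaged 3.75 in the former and 4.04 in the latter in WT replicate 1, 4.10 and 4.59 in WT replicate 2, and 4.56 and 5.17 in APC-KO replicate 2. The ratios were 0.93, 0.89 and 0.88, so dividing ISC cells had slightly fewer class II UMIs in the 3 libraries with enough cells. No test was made over cells.

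The stem and progenitor class (ISC, SEC-PRO and ENTERO-PRO) was compared with mature cells (EC, NON-EC, GOBLET, PANETH and TUFT) in 1 fit with the library as a block. All 6 class II members were called higher in stem and progenitor cells, against 29.3% of the 12225 genes tested (61.5% were called in either direction). H2-Aa had 151 and 158 CPM in stem and progenitor cells of WT against 21.9 and 23.3 in mature cells, and 411 and 207 against 43.5 and 55.2 in APC-KO. Its log2 fold difference was 2.35 ± 0.15 (SE; edgeR quasi-likelihood test, adjusted p = 8.5e-10). Cd74 had 771 and 814 CPM against 99.6 and 101 in WT and 1489 and 1030 against 181 and 259 in APC-KO, with a log2 fold difference of 2.51 ± 0.15 (edgeR, adjusted p = 3.4e-10). H2-Eb1 differed by 2.55, H2-DMa by 2.57, Ciita by 2.08 and H2-Ab1 by 1.37, with 95% intervals of 2.24 to 2.86, 2.22 to 2.92, 1.52 to 2.64 and 1.12 to 1.61. The stem and progenitor side was higher for all 6 genes in all 4 libraries, which held for 30.1% of 13387 genes. The interval of H2-Ab1 did not overlap those of H2-Aa, H2-Eb1, H2-DMa and Cd74. In bulk sums like these, fewer cells with a transcript and fewer transcripts per cell cannot be told apart without the shares of cells given above.

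**Figure D3:**
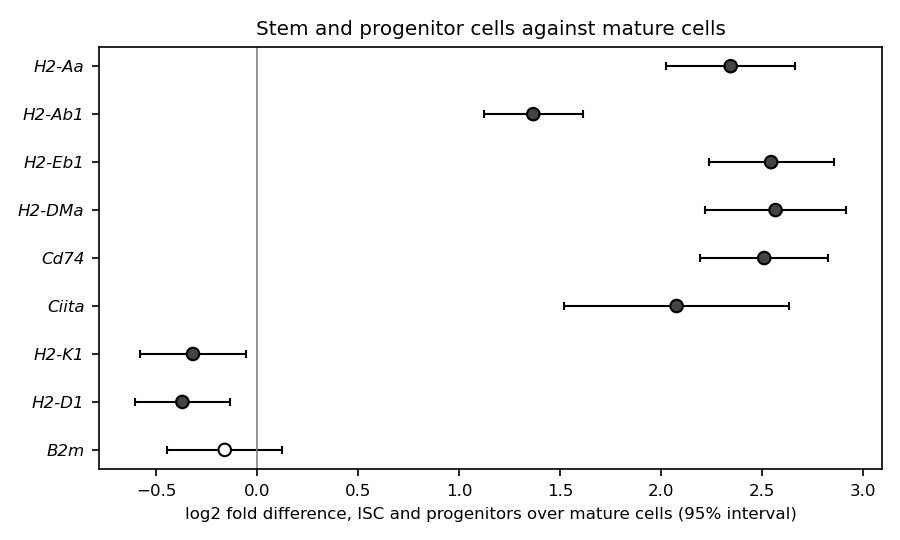
Log2 fold difference of each gene between ISC and progenitors and mature cells (x axis) from the fit over all genes, with its 95% interval. Filled points passed the adjusted threshold and the open point (B2m) did not. Class II genes lie between 1.37 and 2.57 and class I genes between -0.37 and -0.16.

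The class II chains did not keep 1 ratio across types. H2-Ab1 and H2-Aa pair into I-A, and ISC held 1.56 and 1.77 H2-Ab1 UMIs per H2-Aa UMI in WT and 0.94 and 1.61 in APC-KO. GOBLET-PRE held 5.61 and 5.34 in WT and 3.15 and 3.38 in APC-KO. In GOBLET the ratio was 5.58 and 6.51 in WT and 4.42 and 4.68 in APC-KO. Hormone cells were also high, with 4.59 and 3.92 in WT and 13 and 3.61 in APC-KO for NON-EC. EC held 3.67 and 3.83 in WT and 5 and 2.41 in APC-KO. In APC-KO replicate 1 only 1 H2-Aa UMI was counted in NON-EC and 4 in EC. The ratio in GOBLET-PRE was above that in ISC in all 4 libraries, and the 95% exact intervals, which cover counting error only, did not overlap in any of them. PANETH-PRE, the next type after ENTERO-PRO and ISC for H2-Aa in WT, had 1.65 and 1.40 in WT and 1.64 and 1.99 in APC-KO, near ISC. TUFT held 1.80 in WT replicate 1 and 8.00 in WT replicate 2, where only 5 H2-Aa UMIs were counted. Barcodes with 1 to 50 UMIs, taken as free RNA, gave 2.07 and 1.74 in WT and 1.66 and 2.34 in APC-KO, below GOBLET and GOBLET-PRE in every library. Within GOBLET-PRE both WT ratios lay above both APC-KO ratios, and the intervals of WT replicate 1 (4.71 to 6.72) and of APC-KO replicate 2 (2.91 to 3.94) did not overlap. This pair was singled out after its values had been seen.

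**Figure D4:**
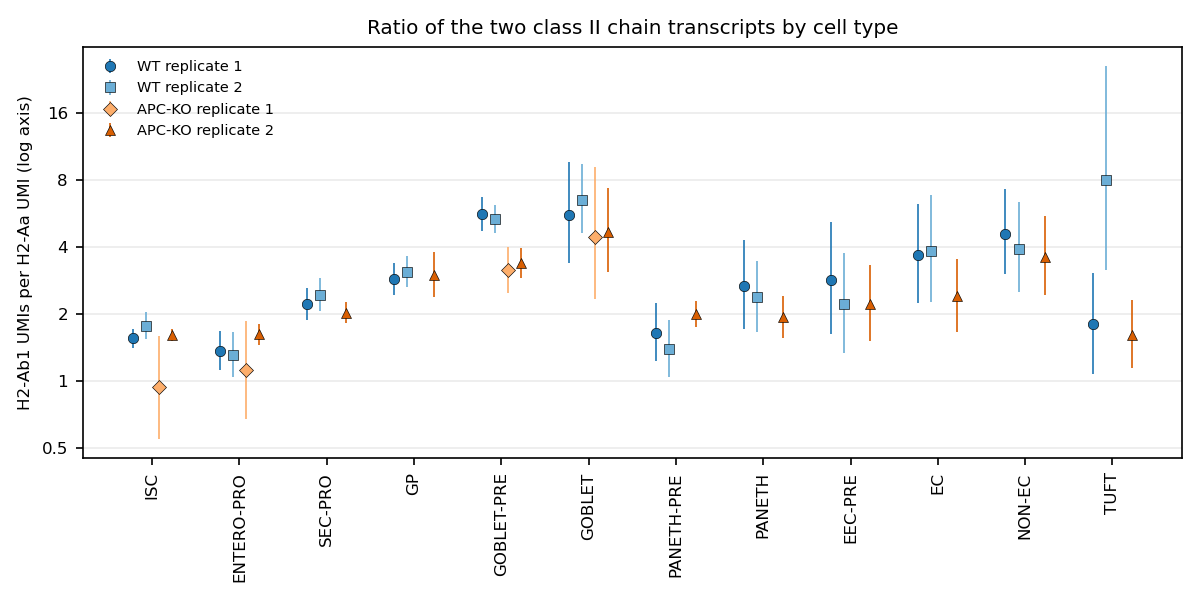
H2-Ab1 UMIs per H2-Aa UMI (log axis) by cell type and library, with 95% exact intervals of counting error. Sums with under 40 UMIs of the pair are not drawn. The ratio lies above 3 in GOBLET-PRE, GOBLET and NON-EC and below 2 in ISC, ENTERO-PRO and PANETH-PRE in every library drawn. In EC it lies above 3 in WT and at 2.41 in APC-KO replicate 2.

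Class I genes had another order of types. B2m, the light chain of every class I molecule, was highest in GOBLET, with 941 and 956 CPM in WT and 1621 and 1127 in APC-KO, and in WT lowest in PANETH, with 190 and 197 in WT and 431 and 369 in APC-KO, where other types were lower. In ISC B2m had 557 and 556 CPM in WT and 541 and 380 in APC-KO. H2-K1, a classical heavy chain, had 1055 and 1212 CPM in GOBLET of WT and 1151 and 886 in APC-KO. In PANETH H2-K1 had 226 and 311 CPM in WT and 293 and 454 in APC-KO. H2-K1 in WT GOBLET lay above every other WT type, whereas ISC (427 and 456 CPM) overlapped with TUFT and EEC-PRE. H2-D1, the other classical heavy chain, was highest in TUFT (728 and 820 CPM in WT, 663 and 450 in APC-KO) and in GOBLET (727 and 820 in WT, 764 and 483 in APC-KO), which did not separate. In PANETH H2-D1 had 106 and 150 CPM in WT and 182 and 159 in APC-KO. After thinning, 98.8% and 99.6% of WT GOBLET cells and 66.0% and 73.0% of WT PANETH cells had a class I UMI.

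The heavy chains also differed from each other between types. TUFT cells held 1.69 and 1.57 H2-D1 UMIs per H2-K1 UMI in WT and 1.35 and 0.92 in APC-KO. PANETH cells held 0.47 and 0.48 in WT and 0.62 and 0.35 in APC-KO. The TUFT ratio was higher in every library, although TUFT and PANETH held only 8 and 16 cells in APC-KO replicate 1. Among the last 400 bases of each member's transcripts, H2-D1 alone shared a stretch of at least 90 bases at 95% identity with other genes, namely 4 genes of which 3 are in the files. How the authors' counting split such reads was not given in the sources used here.

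In the fit of stem and progenitor against mature cells, H2-K1 and H2-D1 were called lower, against 32.2% of genes called lower. H2-K1 had 456 and 510 CPM in stem and progenitor cells of WT against 473 and 594 in mature cells, and 730 and 440 against 593 and 557 in APC-KO. Its log2 fold difference was -0.32 ± 0.12 (SE; edgeR, adjusted p = 0.036), and APC-KO replicate 1 went the other way. H2-D1 had 384 and 458 CPM against 429 and 496 in WT and 440 and 272 against 453 and 328 in APC-KO, with a log2 fold difference of -0.37 ± 0.11 (edgeR, adjusted p = 0.0085). Both calls were lost without WT replicate 1 (adjusted p = 0.092 for H2-K1 and 0.055 for H2-D1), without WT replicate 2 (0.29 and 0.091) and without APC-KO replicate 2 (0.22 and 0.067). The H2-K1 call was also lost with DESeq2 size factors (edgeR, adjusted p = 0.070), with cells of at least 2000 UMIs (0.067) and with thinned cells (0.12). B2m differed by -0.16 with a 95% interval from -0.45 to 0.13 (edgeR, adjusted p = 0.32), and its value was 0.07 in the WT libraries alone. The class I differences were thus small beside those of class II.

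The rest of the pathway was followed through fixed lists in the same fit, in which the median log2 fold difference over all genes was -0.05 and 29.3% of genes were called higher and 32.2% lower. Of 14 genes that make, carry and load class I peptides, 10 were called higher in stem and progenitor cells and 1 lower, with a median of 0.57. Psmb9 (1.5) and Psmb8 (1.17), catalytic subunits of the immunoproteasome, Psme2 (0.91), a subunit of its activator, and Nlrc5 (0.81) were higher, and Tapbp, the peptide loading chaperone tapasin, was lower (-0.53). The class I loading genes therefore lay mostly on the stem cell side while H2-K1 and H2-D1 did not. Of 13 other class I heavy chains tested of 14 listed, 5 were called higher and 4 lower, with a median of 0.24. H2-T3 (3.18), a thymus leukaemia antigen expressed by intestinal epithelium, and Fcgrt (2.65), the neonatal Fc receptor, were the highest, and Cd1d1 (-2.37), which presents lipids, and H2-T23 (-1.09) the lowest. Members of the H2-Q and H2-T families are close copies of each other, so their counts are uncertain.

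Of 13 genes tested among 17 present for class II loading and class II transcription, 5 were called higher and 2 lower, with a median of -0.04. Ctss (2.52), the protease that trims the invariant chain, and H2-DMb1 (1.41), the partner of H2-DMa, were higher with the class II members. Ctsl (-1.69) and Lgmn (-1.19), also endosomal proteases, were lower. Rfx5, which binds the X1 box, had a value of -0.04 and was not called. Among 20 tested genes of the interferon gamma response, 5 were called higher and 7 lower, with a median of -0.17, shares near those of all genes. Iigp1 (1.01), Irf8 (0.96) and the receptor chain Ifngr1 (0.60) were higher, and Gbp2 (-2.38), Jak2 (-0.96) and Stat3 (-0.89) were lower. Irf1 (0.04), a transcription factor of the response, was not called. Of 5 costimulation genes, 2 were tested and both were called lower, namely Icosl (-2.22) and Cd276 (-1.03). Neither of the tested ligands was thus higher where class II was.

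Between genotypes, no member was called in any of the 5 sums that could be fitted (edgeR). At an unadjusted p under 0.05 there were 4 members over all cells, 5 in stem and progenitor cells, 4 in EC, 3 in GOBLET-PRE and 2 in GOBLET, and DESeq2 called Cd74 in GOBLET-PRE alone. The class II values all lay above 0, while class I values lay on both sides. Over all kept cells, the background was 0% of 13345 genes called (495 at an unadjusted p under 0.05, and 23 called by DESeq2). Ciita had 5.43 and 3.81 CPM in WT and 12.6 and 13.2 in APC-KO, with no overlap. Such a gap, APC-KO above WT, held for 8.69% of 14025 genes in these sums, and the reverse for 25.6%. Its log2 fold change was 1.57 ± 0.27 (SE; edgeR, adjusted p = 1). H2-Aa had 67.1 and 62.9 CPM in WT and 77.1 and 132 in APC-KO, and its log2 fold change was 0.77 with a 95% interval from 0.14 to 1.40. Cd74 had 334 and 306 CPM in WT and 316 and 658 in APC-KO, so the genotypes overlapped. APC-KO replicate 2 had the largest share of ISC and progenitors (41.3% of its cells), and sums over all cells follow the mix of types. Without APC-KO replicate 1, H2-Aa (1.03), H2-Eb1 (1.23), H2-DMa (0.78), Cd74 (1.06) and Ciita (1.53) were called higher (edgeR, adjusted p from 0.022 to 0.044), with 483 genes called in all.

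Within stem and progenitor cells, where 0.92% of 11092 genes were called (0.55% higher and 0.37% lower, with 1379 at an unadjusted p under 0.05 and 25 called by DESeq2), no member was. The class II log2 fold changes were 0.97 for H2-Aa, 0.64 for H2-Ab1, 0.87 for H2-Eb1, 0.52 for H2-DMa, 0.74 for Cd74 and 1.10 for Ciita, with adjusted p from 0.16 to 0.40 (edgeR). All 6 genes had both APC-KO libraries above both WT libraries, which held for 11.9% of 12033 genes in these sums (30% were lower in the same way). Cd74 had 771 and 814 CPM in WT and 1489 and 1030 in APC-KO, and Ciita had 14.0 and 13.4 in WT and 104.3 and 21.8 in APC-KO. Only 29 cells of APC-KO replicate 1 entered. The mix of types also differed between the genotypes: ISC and ENTERO-PRO made up 691 of 1234 and 293 of 680 of these cells in WT and 24 of 29 and 1713 of 2576 in APC-KO, and SEC-PRO had a lower class II sum (690 and 884 CPM in WT, against 1917 and 2229 in ISC and ENTERO-PRO). With SEC-PRO left out the values were 0.58 for H2-Aa, 0.30 for H2-Ab1, 0.44 for H2-Eb1, 0.20 for H2-DMa, 0.37 for Cd74 and 0.84 for Ciita (edgeR, adjusted p from 0.70 to 0.90), and 29 genes were called. Without that library the class II values ran from 0.34 (H2-DMa) to 0.75 (Ciita) and none was called, whereas 523 genes were. Without APC-KO replicate 2 H2-Aa (1.5), H2-Eb1 (1.24) and Ciita (3.0) were called (edgeR, adjusted p = 0.0055, 0.018 and 0.0055), with 142 genes called in all and the APC-KO side resting on those 29 cells. The class I values were 0.33 for H2-K1, -0.21 for H2-D1 and 0.08 for B2m, with intervals that include 0.

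In the 3 types with enough cells in each library, class II values again lay above 0. In GOBLET-PRE, where 0.00974% of 10272 genes were called (817 at an unadjusted p under 0.05), H2-Aa had 22.7 and 33.4 CPM in WT and 52.8 and 49.3 in APC-KO, and Cd74 had 98.9 and 134 in WT and 235 and 192 in APC-KO. Neither overlapped, with log2 fold changes of 0.98 ± 0.20 and 1.00 ± 0.20 (SE; edgeR, adjusted p = 0.48 for each). H2-Eb1 had 16.8 and 18.6 CPM in WT and 42.7 and 30.0 in APC-KO, with a log2 fold change of 1.11 ± 0.22, while H2-Ab1 had 127 and 178 against 166 and 167 CPM, a value of 0.25. Without APC-KO replicate 1 the GOBLET-PRE values were 0.79 for Cd74 and 0.83 for H2-Eb1, and H2-DMa fell from 0.35 to 0.044. With the replicate number as a block, H2-Aa, H2-Eb1 and Cd74 were called (edgeR, adjusted p from 0.0068 to 0.013) and 110 genes in all. In EC, where 0% of 8690 genes were called (729 at an unadjusted p under 0.05, and 13 called by DESeq2), 7 members passed the filter on low counts. Cd74 had 106 and 89.8 CPM in WT EC and 117 and 235 in APC-KO, a value of 1.00 ± 0.27 (edgeR, adjusted p = 0.40). Without APC-KO replicate 1, H2-Aa, H2-Ab1, Cd74 and B2m were called in EC, with 405 genes in all. In GOBLET, where 0.0837% of 5974 genes were called (0.0335% higher and 0.0502% lower, with 669 at an unadjusted p under 0.05), the log2 fold change was 0.88 ± 0.29 for Cd74 and 1.25 ± 0.44 for H2-Eb1 (SE; edgeR, adjusted p = 0.31 and 0.33), while H2-D1 had a value of -0.51 with an interval from -1.13 to 0.11. Without APC-KO replicate 1 the GOBLET values were 0.51 for Cd74, 0.93 for H2-Eb1 and -0.79 for H2-D1, and H2-Aa fell from 0.32 to 0.026. H2-DMa and Ciita did not pass the filter in EC or GOBLET, nor did Ciita in GOBLET-PRE.

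**Figure D5:**
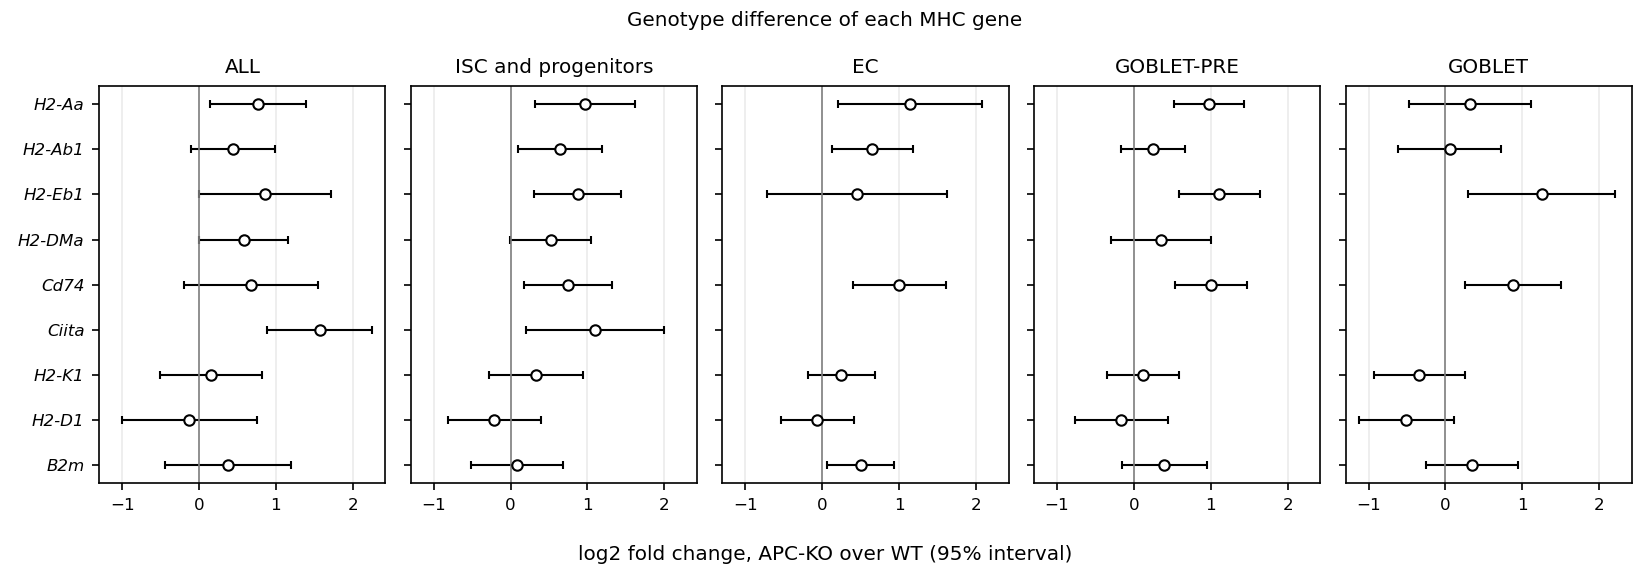
Log2 fold change of each gene between APC-KO and WT (x axis) in 5 sums of cells, with 95% intervals. Open points mark that none passed the adjusted threshold, and a missing point is a gene that did not pass the filter on low counts. Class II values lie above 0 in each sum, from 0.05 to 1.57, and H2-D1 values lie below 0.

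Taken type by type, the genotypes were set side by side by whether both APC-KO libraries lay above or below both WT libraries. Beside this stands the share of genes that did so, among those with at least 20 UMIs in the 4 sums. In ISC, Cd74, Ciita, H2-Aa, H2-DMa and H2-Eb1 were higher (11.1% of genes) and B2m was lower (25.9%). In SEC-PRO, Cd74, H2-Aa, H2-Ab1, H2-DMa and H2-Eb1 were higher (9.72%, with 30.9% lower). In ENTERO-PRO no member was higher (14.7%), and B2m and H2-D1 were lower (18%). The gap of ISC was thus not seen in ENTERO-PRO, the type with the same WT level, although the difference between these types was not tested.

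Along the goblet branch, H2-Eb1 was higher in GP (10.3%, with 32.2% lower), and Cd74, Ciita, H2-Aa and H2-Eb1 in GOBLET-PRE (11.6%, with 30% lower). Ciita was also higher in GP, but it had under 20 UMIs there, so that share does not cover it. Its 41.7 CPM in APC-KO replicate 1 came from 7 cells. In GOBLET, B2m, Cd74, H2-Aa, H2-DMa and H2-Eb1 were higher (27.3%, with 14.3% lower). In PANETH-PRE no member was higher (18%), and H2-D1 and H2-K1 were lower (14.2%). In PANETH every member but H2-K1 was higher, but so were 42.7% of all genes (3.45% were lower). Among hormone cells, Cd74, H2-Aa, H2-Ab1 and H2-Eb1 were higher in EEC-PRE (10.1%, with 29.7% lower). In EC, B2m, Cd74, H2-DMa and H2-K1 were higher (14.6%, with 23.6% lower). In NON-EC H2-Ab1 and H2-K1 were higher (13.9%) and H2-D1 was lower (24.7%), and in TUFT no member was higher (10.9%) while H2-D1 was lower (27.8%). In the mature cells summed, all members but H2-K1 and H2-D1 were higher (18.6%, with 14.3% lower).

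No class II member was lower without overlap in any of the 12 types. Cd74 and H2-Eb1 were higher in 7 types each, H2-Aa in 6, H2-DMa in 5 and H2-Ab1 and Ciita in 4 each. These tallies include Ciita in GP, where it had under 20 UMIs. Ciita in PANETH and H2-DMa in SEC-PRO also rested on very few UMIs in APC-KO replicate 1. By type, the share of all genes higher in this way ran from 9.72% in SEC-PRO to 42.7% in PANETH. The share lower in this way ran from 3.45% in PANETH to 32.2% in GP. APC-KO replicate 2, the library with more cells, lay above both WT libraries for Cd74 and H2-Eb1 in 10 types, and it lay below both for H2-D1 in 11 types. The share of all genes that did so in that library alone was not computed, so these counts have no background. Only EC, GOBLET and GOBLET-PRE had at least 20 cells in APC-KO replicate 1, so the other types rest there on 5 to 16 cells.

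Whether the stem cell difference itself depended on genotype was tested by the interaction of class and genotype, which called 1.22% of 12225 genes (0.335% higher and 0.883% lower, with 1040 at an unadjusted p under 0.05 and 2 called by DESeq2) and no member. The ratio of stem and progenitor to mature cells for Cd74 was 7.74 and 8.03 in WT and 8.25 and 3.98 in APC-KO, and the interaction was -0.44 with a 95% interval from -0.91 to 0.02 (edgeR, adjusted p = 0.63). Without APC-KO replicate 1, Cd74 (-0.82) and H2-Aa (-0.70) were called, as were 351 genes in all. Ratios for B2m were 1.39 and 1.14 in WT and 0.90 and 0.79 in APC-KO, an interaction of -0.50 ± 0.23 (SE; edgeR, adjusted p = 0.51). Of the pathway lists, which held no called gene in any genotype comparison, Pdia3, a chaperone of class I loading, was the only gene called in the interaction (-0.89; edgeR, adjusted p = 0.020).

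Free RNA and immune markers were measured beside these results. The class II genes summed to 993 and 1070 CPM in the free RNA of WT and 1361 and 1515 in that of APC-KO, against 652 and 630 and 677 and 1235 in kept cells. Their level in free RNA thus exceeded that of every mature type, and it was higher in both APC-KO libraries. In free RNA 6 members were higher without overlap in APC-KO, against 8.86% of 10539 genes (23.6% were lower). After subtraction of that profile at 5% of each sum, the fold difference of stem and progenitor over mature cells was called for the same 8 members and no member was called between genotypes. The 5% was assumed rather than estimated. It took 49.6 and 53.5 CPM of class II in WT and 68.1 and 75.8 in APC-KO. TUFT, which gives the upper limit, held 170 and 122 CPM in WT and 94.7 and 479 in APC-KO, so larger shares were not tested. A list of 20 immune markers summed to 12.0 and 9.19 CPM in WT and 12.6 and 18.2 in APC-KO, with 1, 3, 12 and 0 of the markers at 0. In ISC the list summed to 11.4 and 4.97 CPM in WT and 0 and 13 in APC-KO. Leaving out the 429 of 15234 cells (2.82%) with a UMI of 14 of these markers left 8 members called between stem and mature cells and none between genotypes. In the mature cells the immune list was also higher in APC-KO, with 14.3 and 10.8 CPM in WT and 29.4 and 34.2 in APC-KO. In EC it had 27.2 and 26.7 CPM in WT and 65.9 and 85.4 in APC-KO. Of all types in WT the list was highest in EEC-PRE, with 68.7 and 41.4 CPM, against 58.9 (7 UMIs) and 52.5 in APC-KO. In APC-KO replicate 1 the mature sum held 23 UMIs and the EC sum 18, with 14 and 18 of the 20 markers at 0. C1qa alone had 17 UMIs over all kept cells of that library. Free RNA held more of the list than the cells, with 91.2 and 50.4 CPM in WT and 39.0 and 105 in APC-KO.

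Over the 39 sums of 1 type and library with at least 20 cells, class II genes ran together, and most of them apart from class I. The Pearson correlation of log2(CPM + 1) with Cd74 was 0.95 for H2-Aa, 0.90 for H2-Eb1, 0.82 for H2-DMa, 0.80 for H2-Ab1 and 0.78 for Ciita, but -0.05 for H2-K1 and -0.31 for H2-D1. B2m had correlations of 0.86 with H2-K1 and 0.58 with H2-D1. H2-Ab1 ran closer to class II (from 0.64 with Ciita to 0.875 with H2-Aa) than to class I (0.56 with B2m, 0.42 with H2-K1 and 0.099 with H2-D1). These sums share 4 libraries and 12 types, so the correlations only describe. Of 6030 genes with a mean CPM of at least 20, the 10 outside the 9 members that were most like Cd74 were Mt1 (0.85), Aldh1b1 (0.84), Tstd1 (0.83), Tkt (0.82), Ccl25 (0.81), Tomm5 (0.78), Ccnb2 (0.77), Pycard (0.76), Dmbt1 (0.76) and Bmp2k (0.75). The 10 non-members most like B2m were Rfk (0.85), S100a10 (0.82), Eif2s2 (0.81), Lypd8 (0.81), Psmb10 (0.81), AW112010 (0.80), Ltbr (0.80), Pkp3 (0.80), Slc25a37 (0.79) and Lypla1 (0.79).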

How the data were processed

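Single-cell RNA was measured in 4 libraries, 2 per genotype. The deposited matrices hold UMI counts per gene and barcode, made with Cell Ranger 3.0.2, which uses STAR, on mm10, per the submitters' processing notes. The deposited cell tables, also from the authors, give UMI and gene counts, the mitochondrial share in percent, a library name and 1 of 12 type names. How cells were filtered and named was not given in the sources used here, nor how doublets were treated, and no doublet caller was run. Each library held 54230249 to 61032126 UMIs over 6794880 barcodes, of which 3009636 to 27285079 lay in kept cells. UMI intervals cover counting error only.

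UMIs were summed per type and library. Sums of at least 20 cells in each library were fitted with edgeR 4.0.16 in R 4.3.3 (TMM, filterByExpr, quasi-likelihood test, Benjamini-Hochberg adjustment over all genes, threshold 0.05). Genotype fits held 4 sums. The class fit held 2 sums per library with the library as a block, and the interaction fit held sums per class and library. Intervals of log2 fold changes are 95% and use edgeR's degrees of freedom. The fits were tested on simulated data, where the share of false calls was above the threshold in most of them, the stem and progenitor genotype fit and the class fit included. Alternatives were DESeq2 1.42.0 (size factors, Wald test), no low count filter, cells of at least 2000 UMIs, thinning to 2000 UMIs, subtraction of 5% free RNA (barcodes with 1 to 50 UMIs), cells with immune markers left out, 1 sum per type, SEC-PRO left out, WT alone, the replicate number as a block and each library left out. A crossed block, and the stem and progenitor genotype fit without SEC-PRO, were chosen later, once the data had been seen.

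Gene positions are from GENCODE vM21, and promoters of 6 of the 9 members matched in the RefSeq table. All 9 members were fitted in each comparison where they passed the filter on low counts, but the text does not print every value. The 10 genes most correlated with Cd74 and with B2m are named. The rule gave each pathway list at most 4 examples, the largest changes past the threshold first, and genes named beyond these were chosen after their values were seen. The members and lists were chosen with earlier results of these data known.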

Additional observations from a re-analysis of the deposited data

Results flagged for a closer look

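RNA in barcodes with 1 to 50 UMIs, which the comparisons do not use, held more of 6 of the 9 genes in both APC-KO libraries than in both WT libraries, as did 8.86% of 10539 genes. Cd74 had 516 and 532 CPM there in WT and at least 678 CPM in APC-KO. The lower of the APC-KO libraries had 157 CPM of H2-Aa, 274 of H2-Ab1, 167 of H2-Eb1, 44.3 of H2-DMa and 708 of H2-K1. The corresponding higher WT values were 133, 231, 123, 41.5 and 637 CPM. H2-D1, B2m and Ciita overlapped between the genotypes in these barcodes.

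The ratio of stem and progenitor to mature cells for B2m was above 1 in both WT libraries (1.39 and 1.14) and below 1 in both APC-KO libraries (0.90 and 0.79). The 95% exact interval of the 0.90, which covers counting error only, ran from 0.73 to 1.105 and so included 1. It rested on 29 stem and progenitor cells. The share of all genes with ratios parted in this way was not computed. The test of the difference between genotypes in this ratio gave an interaction of -0.50 on the log2 scale (edgeR, unadjusted p = 0.034, adjusted p = 0.51).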

How the results depend on the processing

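Of 720 values of single members under the alternatives, 652 kept their direction and side of the threshold, 9 lost a call, 26 gained one and 33 changed sign. All 6 class II calls between stem and mature cells held under every alternative run, and members called there ranged from 6 to 8. The causes of the changes below were not tested.

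Genes called between genotypes over all cells numbered 23 with the DESeq2 Wald test, 21 without the filter, 4 with the replicate block and 1 with the crossed block. In EC they numbered 13, 174 and, thinned, 4. In GOBLET-PRE they numbered 38 (DESeq2), 280 (no filter), 15 (thinned) and 0 (free RNA subtracted), in GOBLET 79 (no filter) and 3 (free RNA), and in ISC and progenitors 25 (DESeq2), 548 (no filter), 314 (thinned) 39 (free RNA) and 29 (without SEC-PRO). The replicate block called 110 genes in GOBLET-PRE and 73 in GOBLET, with 3 members in GOBLET-PRE and 1 (Ciita) in ISC and progenitors. Numbers did not pair the libraries (correlation of deviations -0.25 over all cells and -0.05 to 0.02 elsewhere). The interaction called 2 genes (DESeq2), 92 (thinned) and 241 (free RNA). Without the filter 1 member was called in EC, 3 in GOBLET-PRE and 3 in ISC and progenitors, and the DESeq2 Wald test called 1 in GOBLET-PRE.

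With 1 library left out, genes called ranged from 0 to 483 over all cells, 0 to 405 in EC, 7 to 64 in GOBLET-PRE, 0 to 21 in GOBLET, 18 to 523 in ISC and progenitors and 12 to 351 in the interaction. Members called ranged from 0 to 5, 0 to 4, 0 to 0, 0 to 0, 0 to 3 and 0 to 2. The lone library left in a group is then assumed to vary like the other group.

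Values of single members changed sign with 1 library left out as follows (lowest to highest log2 value). Over all cells the range was -0.13 to 0.42 for H2-K1, -0.63 to 0.28 for H2-D1 and -0.083 to 0.76 for B2m. In EC it was -0.21 to 1.46 for H2-Aa, -2.40 to 0.87 for H2-Eb1 and -0.24 to 0.11 for H2-D1. In GOBLET-PRE it was -0.046 to 0.26 for H2-K1 and -0.57 to 0.16 for H2-D1, and in GOBLET -0.34 to 0.47 for H2-Ab1. In ISC and progenitors it was -0.041 to 0.68 for H2-K1, -0.53 to 0.15 for H2-D1 and -0.24 to 0.41 for B2m. In the interaction it was -0.70 to 0.61 for H2-Aa, -0.10 to 0.27 for H2-Ab1, -0.56 to 0.80 for H2-Eb1, -0.75 to 0.21 for H2-DMa, -0.82 to 0.21 for Cd74, -1.13 to 1.19 for Ciita and -0.038 to 0.58 for H2-K1. APC-KO replicate 1 or 2 gave at least 1 end of each of these ranges. Of the other settings, H2-Ab1 in GOBLET had -0.020 without the filter, -0.24 thinned and -0.0094 with free RNA subtracted, and B2m in ISC and progenitors had -0.10 thinned and -0.14 without SEC-PRO. In the interaction H2-Ab1 had -0.043 with cells of at least 2000 UMIs, and thinning gave -0.14 for H2-K1 and -0.15 for H2-D1. The B2m difference between stem and mature cells was 0.11 with 1 sum per type and 0.069 in WT alone.

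Depth limits Ciita most, with 38 to 361 UMIs per library, and the types of APC-KO replicate 1, most of which held under 20 cells.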
